A study of Mus musculus with 4 samples.

Results

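DNA topoisomerases and the enzymes that free DNA from them were followed in mouse pachytene spermatocytes exposed to BMH21, a DNA intercalator best known for blocking RNA polymerase I. The genes were taken by symbol: Top1, Top1mt, Top2a, Top2b, Top3a and Top3b, which encode topoisomerases, and Tdp1 and Tdp2, which encode tyrosyl-DNA phosphodiesterases. All 8 were found among 15733 protein-coding genes with read counts, and all 8 passed the filter on low counts. Single-cell suspensions of mouse testis were kept for 12 h with BMH21 at 2.5 µM or with the solvent DMSO (mock), pachytene cells were then sorted by FACS on a Hoechst DNA stain, and their mRNA was sequenced from a stranded library. There were 2 libraries per condition, described as biological replicates; the labels give no genotype, strain or age and do not state whether animals were pooled. Because whole suspensions were treated before the sort, the pachytene cells were exposed together with the other cells of the testis.

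Topoisomerases relieve the twisting and tangling of DNA by cutting it and joining it again, and during the cut a tyrosine of the enzyme is bound to the DNA end. Type I enzymes (TOP1, the mitochondrial TOP1MT, TOP3A and TOP3B) cut a single strand, while type II enzymes (TOP2A and TOP2B) cut both. If the joining step fails, the enzyme stays attached as an adduct; TDP1 removes the remnant of TOP1 and TDP2 that of TOP2. In dividing cells TOP2A is the form that separates and compacts chromosomes, whereas TOP2B is also present in non-dividing cells and is tied to transcription. In meiosis the double-strand breaks that start recombination are made by SPO11 with TOPOVIBL, relatives of an archaeal topoisomerase.

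Between 30964370 and 41548269 counts fell on these genes per library, and 15398 to 15535 genes had counts in a library. Replicates were further apart than counting alone allows, with chi-square over its degrees of freedom at 3.23 (mock) and 3.78 (BMH21). Markers of pachytene cells were abundant, with all 10 chosen genes tested; their summed level was 5840 and 5872 CPM (counts relative to the TMM-scaled library size) in mock and 5796 and 5826 CPM in BMH21, led by Hspa2 and Adam3. Of these 10 markers 3 rose and 5 fell (edgeR's quasi-likelihood test, adjusted p under 0.05), beside 16.5% and 12.5% of all tested genes. Their log2 fold changes ran from -0.22 to 0.46, with a median of -0.05, so the near-level sum hides opposed shifts. Round spermatid markers summed to 369 to 374 CPM in mock and 381 to 385 CPM in BMH21, led by Acr and Prm2. Of these 9 markers 0 were called (edgeR), beside 16.5% of all tested genes higher and 12.5% lower. Spermatogonial markers, led by Id4 and Gfra1, summed to 57.1 and 57.1 CPM in mock and 50.3 and 51.1 CPM in BMH21. Of 6 tested spermatogonial markers 0 rose and 2 fell, beside 16.5% and 12.5% of all tested genes. The 2 were Zbtb16 (log2 fold change -0.95, edgeR adjusted p = 0.0055) and Kit (-0.58, edgeR adjusted p = 0.042). The other 4 were not called: Id4 (-0.13), Uchl1 (-0.07), Gfra1 (-0.04) and Nanos3 (0.25). All but Id4 and Gfra1 were named after their values were seen.

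Top2a and Top2b lay far apart in level, and Top2b had the largest fitted change of the 8 genes; the sequence upstream of each start is therefore shown. The windows are the 250 bases before the RefSeq start on GRCm38.p6, chr11:99024190-99024439 (minus strand) for Top2a and chr14:16364956-16365205 (plus strand) for Top2b, written 5′ to 3′ along the gene. Capitals mark CCAAT or GGGCGG on either strand (so ATTGG or CCGCCC when reversed), the boxes known to be read by NF-Y and by Sp family factors.
Top2a: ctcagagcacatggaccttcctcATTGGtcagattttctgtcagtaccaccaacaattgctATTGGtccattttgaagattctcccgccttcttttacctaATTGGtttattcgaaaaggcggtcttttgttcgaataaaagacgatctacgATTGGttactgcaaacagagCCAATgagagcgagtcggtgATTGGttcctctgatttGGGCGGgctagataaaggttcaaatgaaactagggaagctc
Top2b: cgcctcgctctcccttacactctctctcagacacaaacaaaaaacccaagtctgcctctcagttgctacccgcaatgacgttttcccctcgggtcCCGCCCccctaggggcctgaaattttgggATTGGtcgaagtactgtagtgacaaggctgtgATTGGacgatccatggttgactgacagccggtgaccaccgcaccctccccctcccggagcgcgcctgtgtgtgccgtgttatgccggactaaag
The Top2a window held 6 CCAAT matches and 1 GGGCGG match, and the Top2b window 2 and 1. Of 32851 such windows in the RefSeq table, 33.8% held at least 1 CCAAT match, 0.84% held at least 4, and 32.7% held at least 1 GGGCGG match. GC content was 43.6% in the Top2a window and 57.6% in that of Top2b. No binding was measured, so a match is a description of the letters only. RefSeq windows were found for 5 of the 8 genes.

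Per kilobase of exon, 6 of the 8 transcripts were well above the middle of the expressed genes in mock cells and the other two, Top1mt and Top2b, exceeded 24.5% and 22.0% of genes. Levels between genes are given in TPM (counts per kilobase of annotated exon, scaled to the same total in each library). Top2a was the highest, at 160.01 ± 0.624 TPM in mock (SD, n = 2), above 90.8% of genes. It was followed by Tdp2 at 129.4 ± 1.14, Top3a at 99.5 ± 3.86 and Top3b at 69.2 ± 1.71 TPM. Tdp1 (51.5 ± 0.622 TPM) and Top1 (50.5 ± 0.555 TPM) were neighbours whose means lay less than the sum of their SDs apart. Top1mt (0.827 ± 0.126 TPM) and Top2b (0.658 ± 0.188 TPM) overlapped in their mock libraries. Exon lengths came from all annotated isoforms, so the order depends on which isoforms the cells use.

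**Figure D1:**
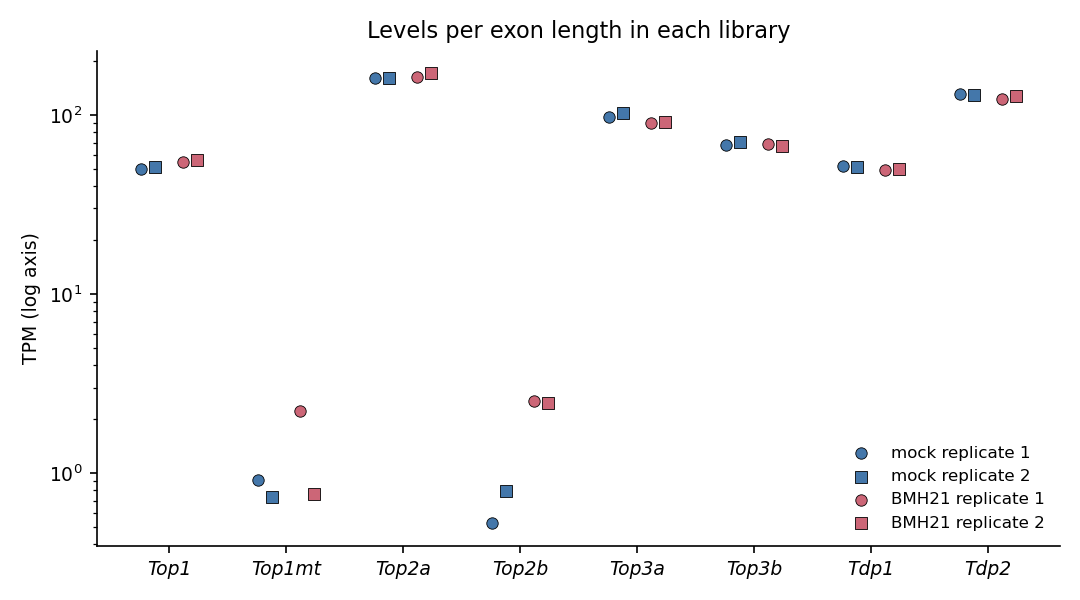
Level of each gene in TPM (log axis) in the 4 libraries; circles are replicate 1 and squares replicate 2, blue for mock and red for BMH21. Top2a lies at 160 to 171 TPM, while Top2b moves from 0.525 and 0.791 TPM in mock to 2.52 and 2.47 TPM in BMH21.

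After BMH21 the transcript of Top2b was 3.92-fold higher, and those of Top1 and Top2a were higher by 11.8% and 5.85%. The comparison of BMH21 with mock was tested with edgeR's quasi-likelihood test, with p adjusted by Benjamini and Hochberg over 13793 tested genes and a gene called at an adjusted p under 0.05. Of the 8 genes 3 were called higher, beside 16.5% of all tested genes, and 0 lower, beside 12.5%. Without adjustment (p under 0.05) edgeR found 3 higher and 1 lower, and DESeq2 at its adjusted p gave 2 higher (beside 13.1% of its tested genes) and 0 lower (beside 8.63%). Under upper quartile scaling, which shifted log2 fold changes by a median of -0.05, 2 of the 8 were called higher and 1 lower; over all genes the split was then 1805 higher and 2480 lower, against 2282 and 1731. The groups did not overlap for 4 of the 8 (Top1, Top2a, Top2b and Top3a), beside 60.9% of tested genes; 3 of these were higher in BMH21 (30.9% of tested genes) and 1 lower (29.9%). The median log2 fold change of the 8 was 0.04, against -0.0003 over all tested genes. In size their median was 0.10, against 0.18 over all tested genes and 0.07 over the 2479 genes averaging 100 CPM or more. These values are relative to the other mRNAs of each library, and a change shared by all mRNAs, or fewer cells of a type as against less RNA per cell, cannot be told apart in bulk libraries.

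**Figure D2:**
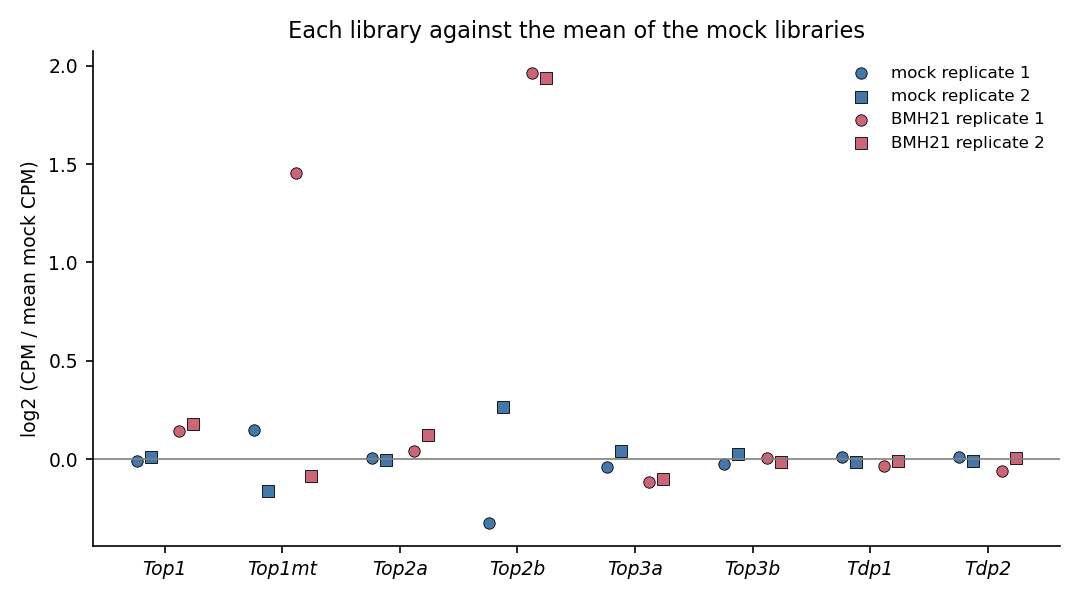
Level of each gene in each library, as log2 of its CPM over the mean of the mock libraries (0 is that mean); circles are replicate 1, squares replicate 2, blue mock and red BMH21. Both BMH21 libraries of Top2b lie near 2, far above its mock libraries, and 1 BMH21 library of Top1mt stands apart from the remaining 3.

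Top2b (ENSMUSG00000017485.12, chromosome 14, 16365179 to 16435462, plus strand, GENCODE M21 on GRCm38) had 82 and 92 counts in the mock libraries and 316 and 347 in the BMH21 libraries. Scaled for depth this was 1.95 and 2.94 CPM in mock and 9.54 and 9.37 CPM in BMH21. Both BMH21 libraries were more than 3-fold above the higher mock library, and the mock libraries differed more from each other than the BMH21 libraries did. The mean went from 2.45 ± 0.700 to 9.45 ± 0.123 CPM (SD, n = 2 each), which edgeR fitted as 1.97 ± 0.19 in log2 fold change (SE; adjusted p = 9.88e-14). The 95% interval of the fold was 3.02 to 5.09. Among autosomal genes 116 of 13427 (0.864%) were called higher with at least this change, and among the 3881 autosomal genes with a mean of 1 to 10 CPM 4.84% were called higher at least 2-fold. In the authors' deposited table Top2b is the one gene of the 8 marked as up, with a log2 fold change of 1.96 and an adjusted p of 1.41e-13. Top1 carries no mark there, although its deposited DESeq2 adjusted p is 0.00557 (log2 fold change 0.16). The mark therefore does not rest on an adjusted p under 0.05 alone, unlike the calls made here. Even so Top2b remained a weak transcript: at 2.49 ± 0.0388 TPM in BMH21 (SD, n = 2) it exceeded 35.2% of genes, against 22.0% in mock.

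Exons of Rarb, a retinoic acid receptor gene on the opposite strand, cover 12.3% of the annotated exon bases of Top2b. The library was stranded, but how featureCounts treated the strand of a read is not stated. No level of Rarb is reported here, and whether reads from its strand entered the Top2b counts was not tested. The nearest listed gene that does not overlap Top2b was Ngly1, which encodes a deglycosylating enzyme and ends 53.3 kb before Top2b on the same strand. Overlapping genes such as Rarb were left out of this search. The means of Ngly1 were 143.7 (mock) and 141 CPM (BMH21), with a log2 fold change of -0.02 (edgeR adjusted p = 0.716). Without mock replicate 1 the log2 fold change was 0.03. Ngly1 was looked up after its value was seen. TOP2B is abundant in somatic cells, so markers of the other testis cells stand here beside it. Sertoli cell markers summed to 1.73 and 2.48 CPM in mock and 0.918 and 2.05 CPM in BMH21, with 6 of the 8 not among the listed genes (Sox9, Wt1 and Gata4 included), led by Amh and Clu. Leydig cell markers, led by Star and Insl3, summed to 9.13 and 9.60 CPM in mock and 6.55 and 7.29 CPM in BMH21. Most of that sum was Star, at 9.01 and 8.93 CPM in mock and 6.07 and 6.61 CPM in BMH21. Star was called lower (log2 fold change -0.50, edgeR adjusted p = 0.00785), 1 of 2 tested, beside 12.5% of all tested genes. Insl3 went the other way, from 0.119 and 0.352 to 0.362 and 0.567 CPM (log2 fold change 1.03, edgeR adjusted p = 0.337). Macrophage and leukocyte markers, led by Csf1r and Ptprc, summed to 6.10 and 6.88 CPM in mock and 5.37 and 5.86 CPM in BMH21. Of the 3 tested, 0 were called (edgeR). Peritubular and endothelial markers, led by Pecam1 and Kdr, summed to 2.02 and 2.15 CPM in mock and 2.46 and 2.54 CPM in BMH21. Of the 2 tested, 0 were called (edgeR), with log2 fold changes of 0.24 for Pecam1 and -0.33 for Acta2. The Leydig and leukocyte sums were lower in both BMH21 libraries, the Sertoli sums overlapped, and the peritubular and endothelial sums were higher in both. The part of other cells in the Top2b level was not tested.

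The genes whose profile over the 4 libraries was most like that of Top2b were Trim52, Bmpr1a and Malt1. Likeness was the Euclidean distance between log2 CPM values centred on each gene's mean, over 7296 named genes averaging 10 CPM or more, so it rests on 4 libraries and largely on the same contrast. Trim52, a member of the tripartite motif family (chromosome 14, distance 0.15), was at 7.13 and 9.31 CPM in mock and 33.8 and 32.3 CPM in BMH21. Bmpr1a, a receptor gene for bone morphogenetic proteins (chromosome 14, distance 0.31), was at 5.15 and 6.21 CPM and then 18.9 and 19.5 CPM. Malt1, which encodes a paracaspase (chromosome 18, distance 0.42), was at 4.67 and 4.74 CPM and then 20.7 and 19.6 CPM. The gap between groups in these 3 genes follows from choosing them by likeness to Top2b, so it is not a separate result. In mock all 3 were at 9.31 CPM or less.

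Top2a (ENSMUSG00000020914.18, chromosome 11, 98992943 to 99024189, minus strand), the TOP2 form of dividing cells and of chromosome condensation, was the most abundant topoisomerase transcript in every library. It had 368 and 366 CPM in mock and 378 and 399.8 CPM in BMH21. Both BMH21 libraries were above both mock libraries, but BMH21 replicate 1 only slightly. The mean went from 367 ± 1.34 to 389 ± 15.6 CPM (SD, n = 2 each), or 0.08 ± 0.03 as a log2 fold change (SE; edgeR adjusted p = 0.0212). The call was lost in DESeq2 (log2 fold change 0.08, adjusted p = 0.0685), under upper quartile scaling (0.04), and when mock replicate 1 (0.09), mock replicate 2 (0.08) or BMH21 replicate 2 (0.04) was left out. The 95% interval of the change was 1.79% to 10.1%. An annotated snoRNA gene covers 1.35% of its exon bases.

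The Top2b share of the TOP2 counts was higher in both BMH21 libraries than in either mock library, although Top2a still made up nearly all of them. Of the counts on both genes, Top2b had 0.528% in mock replicate 1 (exact 95% bounds 0.42 and 0.655) and 0.797% in mock replicate 2 (bounds 0.643 and 0.977). In BMH21 it had 2.46% (bounds 2.20 and 2.75) and 2.29% (bounds 2.06 and 2.54). These bounds are binomial and cover counting error only. The share does not depend on how libraries are scaled, and averaged 0.663% ± 0.190 (mock) and 2.38% ± 0.124 (BMH21; SD, n = 2 each). An exact two-sided permutation test gave p = 0.333, the smallest value that 2 libraries against 2 allow.

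**Figure D3:**
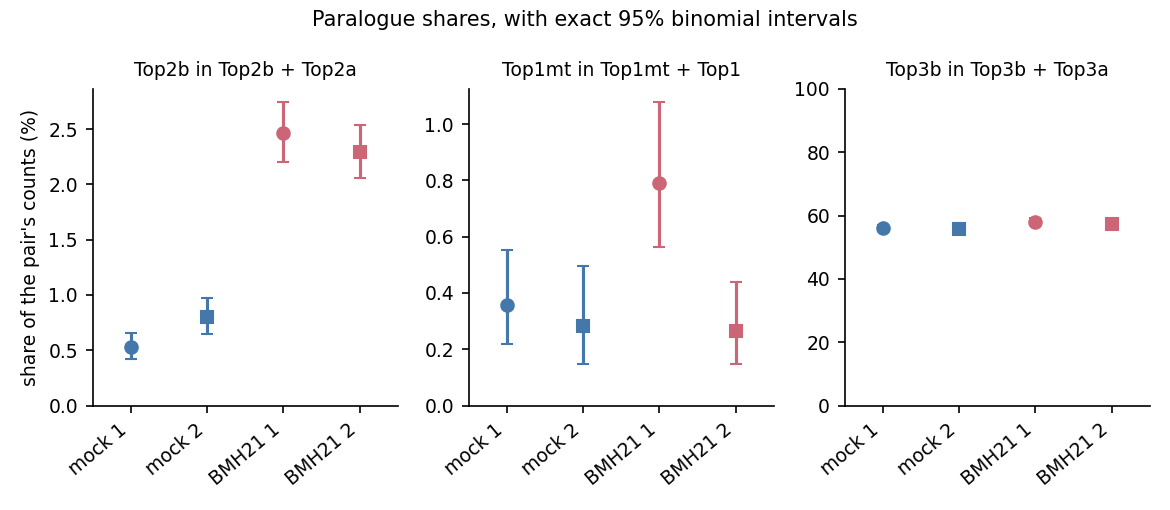
Share of each paralogue pair's counts taken by the named gene in each library, in percent; bars are exact 95% binomial intervals, blue mock and red BMH21, and each panel has its own axis from 0. The Top2b share lies at 0.528% and 0.797% in mock and at 2.46% and 2.29% in BMH21, while the Top3b share stays between 55.7% and 58.1%.

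Top1 (ENSMUSG00000070544.7, chromosome 2, 160645888 to 160722764, plus strand), the main nuclear type I enzyme that removes supercoils in front of polymerases, rose by a small amount. Its level was 133 and 135 CPM in mock and 147.9 and 152 CPM in BMH21. The groups were separated by more than the spread within either. The mean went from 134 ± 1.51 to 149.8 ± 2.62 CPM (SD, n = 2 each), or 0.16 ± 0.04 as a log2 fold change (SE; edgeR adjusted p = 8.51e-04). Top1 was called under all 10 alternative settings, with log2 fold changes of 0.12 to 0.18. The 95% interval of the fold was 1.06 to 1.18.

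Top1mt (ENSMUSG00000000934.10, chromosome 15, 75657035 to 75678800, minus strand), the mitochondrial enzyme, was close to the limit of detection. It had 20 and 12 counts in mock and 39 and 15 counts in BMH21. BMH21 replicate 1 was above the other 3 libraries, and BMH21 replicate 2 lay between the mock libraries in CPM. The log2 fold change was 0.85 ± 0.60 (SE; edgeR adjusted p = 0.317), with a 95% interval of the fold from 0.791 to 4.11. Without BMH21 replicate 1 it was -0.10. With counts this low the direction of any change was not resolved. Its share of the counts on Top1 and Top1mt was 0.357% and 0.283% in mock and 0.79% and 0.266% in BMH21, with an exact two-sided permutation p of 1.0.

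Top3a (ENSMUSG00000002814.16, chromosome 11, 60740058 to 60777365, minus strand) encodes the type IA enzyme that works with BLM to undo joined recombination intermediates. Its level was 113 and 119.7 CPM in mock and 107 and 108 CPM in BMH21. Both BMH21 libraries were below both mock libraries, with a log2 fold change of -0.11 ± 0.04 (SE) that missed the threshold (edgeR adjusted p = 0.0545). It was called lower with RLE size factors (-0.11, adjusted p = 0.0468), under upper quartile scaling (-0.15, adjusted p = 0.00368) and among genes averaging 5 CPM or more (-0.11, adjusted p = 0.0288). The other settings gave log2 fold changes of -0.15 (without mock replicate 1) to -0.07 (without mock replicate 2) with no call.

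Top3b (ENSMUSG00000022779.17, chromosome 16, 16870736 to 16892990, plus strand), a type IA enzyme that acts on RNA as well as DNA, was at 146 and 151 CPM in mock and 149 and 147 CPM in BMH21. The BMH21 libraries lay between the mock libraries. The log2 fold change was -0.003 ± 0.04 (SE; edgeR adjusted p = 0.972). The 95% interval ran from -5.4% to 5.31%. Of the counts on Top3a and Top3b, Top3b had 56.2% and 55.7% in mock and 58.1% and 57.5% in BMH21, a difference of 1.81 percentage points that runs the same way in every pair of libraries (exact two-sided permutation p = 0.333, the smallest possible).

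The adduct repair enzymes did not pass the test. Tdp1 (ENSMUSG00000021177.17, chromosome 12, 99884517 to 99955219, plus strand), which clears TOP1 remnants, was at 106 and 104 CPM in mock and 102 and 104 CPM in BMH21. Tdp2 (ENSMUSG00000035958.4, chromosome 13, 24831679 to 24842153, plus strand), which clears TOP2 remnants, was at 109 and 108 CPM in mock and 104 and 109 CPM in BMH21. In both genes the groups overlapped. The log2 fold changes were -0.02 ± 0.05 for Tdp1 and -0.03 ± 0.04 for Tdp2 (SE), with edgeR adjusted p of 0.779 and 0.72. Their 95% intervals ran from -7.51% to 4.8% and from -7.78% to 4.39%. The starts of these genes lie close to neighbours on the opposite strand, 77 bases from Efcab11 for Tdp1 and 138 bases from Acot13 for Tdp2, and that of Top3a lies 158 bases from Smcr8. Efcab11 had a log2 fold change of -0.14 (edgeR adjusted p = 0.219) and Smcr8 one of 0.12 (0.162); these neighbours too were looked up after the values were seen.

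**Figure D4:**
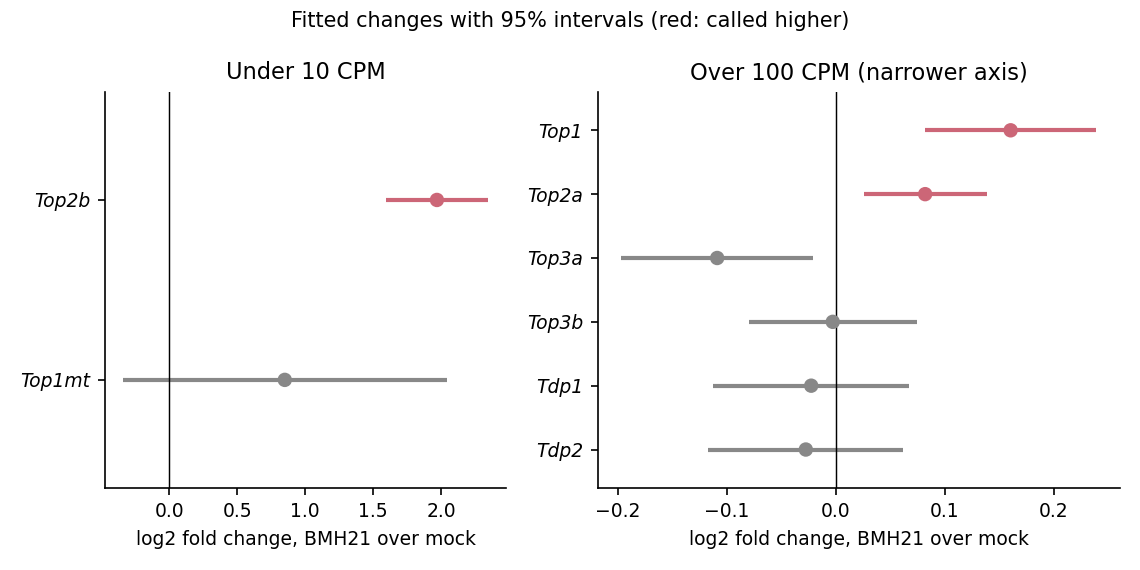
Fitted log2 fold change of each gene (BMH21 over mock) with its 95% interval; red marks genes called higher, grey genes not called, and the right panel has a narrower axis. Top2b stands at 1.97, Top1 at 0.16 and Top2a at 0.08, and the intervals of Top1mt, Top3b, Tdp1 and Tdp2 cross 0.

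Partners of these enzymes and genes of the steps around them were read from 11 lists with 93 tested genes. Of these, 23 rose (24.7%, beside 16.5% of all tested genes) and 17 fell (18.3%, beside 12.5%), with a median log2 fold change of -0.003. The shares of all tested genes cover every level of expression, and shares among genes of like level were not computed. Under upper quartile scaling 12 of the 93 list genes rose and 20 fell. Counts without 1 library were 15 to 23 higher and 10 to 15 lower, the fewest without mock replicate 1 (15 and 10) or mock replicate 2 (15 and 11).

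Spo11, the catalytic subunit of the meiotic break complex, fell from 116 ± 0.964 to 104 ± 2.60 CPM (SD, n = 2 each), or by 0.16 ± 0.04 on the log2 scale (SE; edgeR adjusted p = 0.00358), and lost its call without mock replicate 1 (-0.15). Top6bl, listed under its older symbol Gm960 and encoding TOPOVIBL, was at 1.67 and 2.20 CPM (log2 fold change 0.40, edgeR adjusted p = 0.372). The partners of TOP3A were not called (0 of 3 in edgeR and in DESeq2; Rmi2 alone had an unadjusted p under 0.05). Blm, the helicase, was at 89.1 and 93.5 CPM (0.07; 0.18 and called without BMH21 replicate 1, -0.05 without BMH21 replicate 2). Rmi1 was at 101 and 104 CPM (0.04; -0.01 under upper quartile scaling) and Rmi2 at 7.74 and 9.75 CPM (0.34, edgeR adjusted p = 0.0674).

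TOP3B acts in a complex with TDRD3 and FMRP. Tdrd3 had 74.5 and 83.9 CPM in mock and 83.5 and 92.1 CPM in BMH21, so that the groups overlapped, and a log2 fold change of 0.15 ± 0.05 (SE) that was called in edgeR (adjusted p = 0.0228). The call was lost in DESeq2 (0.15), under upper quartile scaling (0.11), and without mock replicate 1 (0.07) or BMH21 replicate 2 (0.08). The X-linked Fmr1 went from 2.15 and 1.79 CPM in mock to 265 and 264 CPM in BMH21 (log2 fold change 7.05). Fmr1 showed no overlap between the groups (edgeR adjusted p = 8.34e-68), as did 60.9% of all tested genes. No share for X-linked genes is given here, so the rise cannot be called particular to a partner of TOP3B.

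In single-strand break repair, which follows TDP1, 3 of 8 genes rose and 1 fell, beside 16.5% and 12.5% of all tested genes. The median log2 fold change of the 8 was -0.05. Aplf, whose product binds poly(ADP-ribose) at breaks, rose from 2.00 to 5.15 CPM, by 1.37 ± 0.23 on the log2 scale (SE; edgeR adjusted p = 1.63e-06). Parp1, the main sensor of broken strands, rose by 0.16 and the ligase gene Lig3 by 0.07 on the log2 scale. Parp2 fell from 12.6 to 9.34 CPM (-0.44). Lig3 lost its call under upper quartile scaling (0.03) and without mock replicate 1 (0.06) or 2 (0.09), and Parp2 in DESeq2 (-0.44) or without mock replicate 1 (-0.36) or BMH21 replicate 2 (-0.27). Exons of Rffl, on the opposite strand, cover 25.1% of those of Lig3. In end joining, which follows TDP2, 0 of 8 rose and 1 fell (edgeR), beside 16.5% and 12.5% of all tested genes. The 1 was the ligase gene Lig4, which went from 51.4 to 44.1 CPM (-0.22). Lig4 lost its call without mock replicate 2 (-0.17) or BMH21 replicate 2 (-0.19).

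Of 16 genes for the SUMO and ubiquitin marks and for the proteolysis of topoisomerase adducts, 6 were called higher and 2 lower. Over all tested genes 16.5% were called higher and 12.5% lower. The median log2 fold change of the 16 was 0.09. Ddi2, an aspartic protease, rose from 54.8 to 77.6 CPM (log2 fold change 0.50, edgeR adjusted p = 2.79e-11), and the SUMO-targeted ubiquitin ligase Rnf4 from 32.7 to 42.6 CPM (0.38). Zfp451, whose product is a SUMO ligase that works with TDP2 on TOP2 adducts, rose from 138 to 156 CPM (0.17, edgeR adjusted p = 3.29e-04). Pias4, a SUMO ligase that acts on topoisomerases, fell from 220.4 to 188 CPM (-0.23, edgeR adjusted p = 1.29e-07). Sprtn, the protease of DNA-protein adducts, was named after its value was seen; it rose by 0.07, and lost its call under upper quartile scaling (0.03) and without mock replicate 1 (0.06). Exons of the same-strand gene Rsc1a1 cover 18.3% of those of Ddi2. Among nucleases that can cut adducts away, 1 of 11 rose and 0 fell (edgeR), beside the same 16.5% and 12.5%. The 1 was Slx4, the scaffold of structure-specific nucleases, which went from 506 to 588 CPM (0.22, edgeR adjusted p = 6.16e-11).

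**Figure D5:**
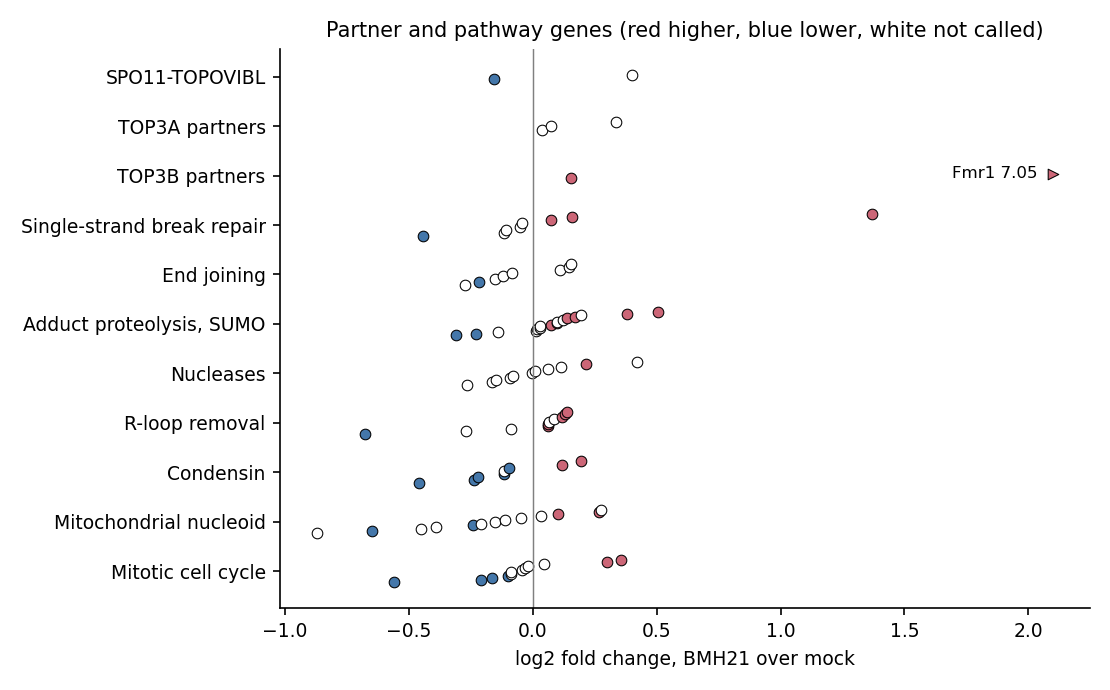
Log2 fold change (BMH21 over mock) of every tested gene in the 11 partner and pathway lists; red genes were called higher, blue lower and white not called, and Fmr1 is drawn at the edge with its value. Condensin shows 5 blue and 2 red points, and Aplf is the red point at 1.37.

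Condensin, which compacts chromosomes together with TOP2A, split by subunit. Of 8 genes 5 fell and 2 rose, beside 12.5% and 16.5% of all tested genes, with a median log2 fold change of -0.11. Ncapg2 fell from 40.8 to 29.7 CPM (-0.46, edgeR adjusted p = 1.85e-06) and Ncaph from 131 to 113 CPM (-0.22). Smc4, a core ATPase subunit gene, rose from 1465 to 1587 CPM (0.12), and Ncapg from 173 to 198 CPM (0.20). Of 12 mitotic cell cycle genes, which commonly share the expression of Top2a, 2 were higher and 4 lower, beside 16.5% and 12.5% of all tested genes. Cdk1 rose from 65.3 to 83.6 CPM (0.36) and the checkpoint kinase gene Bub1 from 86.6 to 106 CPM (0.30), while Aurkb fell from 17.4 to 11.7 CPM (-0.56) and Plk1 from 141 to 122 CPM (-0.21).

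R-loops, hybrids of RNA and DNA that form behind polymerases when supercoils are left in place, are removed by helicases and RNase H. The list for R-loop removal held 10 genes, not all of them helicase or RNase H genes. Of these 10, 5 rose and 1 fell, beside 16.5% and 12.5% of all tested genes, with a median log2 fold change of 0.06. Dhx9 rose by 0.12 and Ddx5 by 0.06; both lost their calls under upper quartile scaling (0.07 and 0.02) and without mock replicate 1 (0.09 and 0.07), Dhx9 also without BMH21 replicate 2 (0.07) and Ddx5 without mock replicate 2 (0.06). Rnaseh1 fell from 8.61 to 5.39 CPM (-0.68, edgeR adjusted p = 5.39e-04). In the list of mitochondrial DNA maintenance and expression, where TOP1MT acts, 2 of 13 rose and 2 fell. These counts stand beside 16.5% and 12.5% of all tested genes. Polg, the mitochondrial DNA polymerase gene, rose by 0.10 and Tfb1m by 0.27, while the elongation factor gene Tefm fell from 5.23 to 3.35 CPM (-0.65) and the helicase gene Twnk from 27.2 to 22.9 CPM (-0.24). All 4 lost their calls under at least 1 alternative: Polg under upper quartile scaling (0.06) and without mock replicate 2 (0.08) or BMH21 replicate 1 (0.08), Tefm in DESeq2 (-0.65) and without mock replicate 1 (-0.54), Twnk in DESeq2 (-0.24) and without mock replicate 2 (-0.20) or either BMH21 library (-0.21 and -0.28). Tfb1m lost its call in DESeq2 (0.27), under upper quartile scaling (0.22), in the fit blocked on replicate number (0.27), and when mock replicate 1 (0.31), mock replicate 2 (0.24) or BMH21 replicate 2 (0.20) was left out.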

How the data were processed

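The members and gene lists were chosen with earlier results of these data known. Fastp, STAR, SAMtools, featureCounts, DESeq2 and mm10 are named in the submitters' processing notes, without versions, settings or order. The authors deposited raw read counts per gene, from which all tests start. The authors also deposited size-factor-normalized values (signal), log2 fold changes with errors, a Wald score and p-values; these entered no test, and the largest gap between them and the log2 fold changes of a DESeq2 1.42.0 run was 2.83e-05. Positions in the table differ from GENCODE M21 for all but 369 of 15670 genes matched by identifier, so coordinates and exon lengths are those of GENCODE M21 on GRCm38.

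Genes were kept by filterByExpr (minimum count 10), which removed 1940 genes, scaled by TMM and tested in R 4.3.3 with edgeR 4.0.16, with group alone; the common biological coefficient of variation was 4.09%. The standard error is the log2 fold change divided by the square root of F, an approximation. The script was tested on simulated data. The named genes were the 8 members, the SPO11, TOP3A and TOP3B partners, up to 4 called genes with the smallest p per other list, the 2 most abundant genes of each marker list, and the 3 genes most like the called member with the smallest p; others are said to be named after their values were seen. A gene that the rule names is not reported here. Alternatives were RLE and upper quartile scaling, no filter, a mean of at least 5 CPM, DESeq2, a replicate block and each library left out. There were 2 libraries per group, so each p-value borrows its error from all genes; whether replicates came from separate animals is not stated.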

Additional observations from a re-analysis of the deposited data

How the results depend on the processing

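Top1 and Top2b kept their direction and call under all 10 alternatives, Top2b with log2 fold changes of 1.68 to 2.27. Of 79 values of the 8 members, 67 kept direction and side of the threshold, 5 lost the call (all Top2a), 3 gained one (all Top3a) and 4 changed sign, each in a gene that was not called. Members called lower numbered 1 with RLE size factors, 1 under upper quartile scaling and 1 when genes averaging under 5 CPM were removed, against 0 (Top1mt then has no value). Genes of the partner lists called higher numbered 12 under upper quartile scaling; without 1 library they were 15 to 23 higher and 10 to 15 lower. Without 1 library the log2 fold change was -0.10 to 1.43 for Top1mt, -0.0264 to 0.0223 for Top3b, -0.0636 to 0.0026 for Tdp2, -0.0506 to 0.179 for Blm and -0.0708 to 0.0287 for Ngly1, and the difference in the Top1mt share was -0.054 to 0.47 percentage points. Rmi1 read -0.0078 under upper quartile scaling. The cause of these shifts was not tested. With the replicate number as a block, 3 members were called higher and 0 lower, as without it. Over all genes 2189 were then called higher and 1595 lower. Deviations of same-numbered libraries correlated at 0.0056 over 7560 genes. With 2 libraries per group this detected no shift shared by same-numbered libraries but cannot exclude one. The labels name nothing that pairs the libraries. Depth limits Top1mt (12 to 39 counts) most.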
